A study of Mus musculus with 6 samples.

Results

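The integrin chains of T cells were taken as 10 genes, 7 alpha chains (Itga1, Itga2, Itga4, Itga6, Itgae, Itgal and Itgav) and 3 beta chains (Itgb1, Itgb2 and Itgb7). Each was represented by the probe set that the platform table assigns to that symbol alone, and every one of the 10 had exactly 1 such probe set. They are 10 of 19938 genes measured. The study profiled CD3-sorted spleen cells of 6 B6D2F1/J mice, 1 array per mouse, all of them lethally irradiated, transplanted with T cell-depleted bone marrow of B6 donors and sampled on day 10. Intraperitoneal rapamycin, which blocks the kinase mTOR, was given to 3 mice at 1.5 mg/kg every other day, and 3 mice were injected with phosphate-buffered saline (PBS) instead. The protocol describes grafts with and without B6 spleen cells. Which kind any one mouse received, and whether the sorted T cells came from donor or host, is not in the labels. The labels call the samples biological replicates, and 3 arrays per group limit the precision, with a median standard error of 0.0955 log2 for a group difference.

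Integrins are adhesion receptors made of 1 alpha and 1 beta chain, and a chain reaches the cell surface only with a partner. On T cells, Itgal pairs with Itgb2 to form LFA-1, which binds ICAM molecules and holds the contact with an antigen-presenting cell. Itgb1 pairs with Itga1 and Itga2 to bind collagen, with Itga4 to bind VCAM and fibronectin, and with Itga6 to bind laminin. Itgb7 pairs with Itga4 to bind the gut vascular addressin MAdCAM and with Itgae, known as CD103, to bind E-cadherin on epithelium. T cells keep integrins in a low-affinity state, and signals from the T cell receptor and chemokine receptors switch them on through Rap GTPases, talin and kindlin.

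In rapamycin-treated mice the transcripts of the collagen receptor chains Itga1 and Itga2 lay lowest against PBS, at log2 differences of -0.61 and -0.65. Itgb1, Itgb7 and their other alpha partners among the 10 genes, apart from Itgav, lay 0.15 to 0.22 below PBS. Both LFA-1 chains lay within 0.01 of it. Of the 10 chains 8 had a negative difference, and the median was -0.19, against 55.3% of all genes with a negative difference and a median of -0.01. By limma's moderated test with Benjamini-Hochberg adjustment over all genes, 0 of the 10 chains passed an adjusted p of 0.05 in either direction. Over all 19938 genes 1 passed, or 0.00502%, namely Glp1r, which was lower. Without rapamycin replicate 1 the number was 7, and without any other single mouse it was 0. At an unadjusted p under 0.05 in limma, 3 chains were lower and 0 higher, where 4.67% of all genes were under it, 3.07% lower and 1.6% higher. The groups did not overlap for 3 chains, all lower, where 9.42% of all genes separated, 6.28% lower and 3.14% higher. These counts varied with the mice included. The count of 3 at the unadjusted threshold became 1 without PBS replicate 1 or without PBS replicate 3. The count of 3 separated chains became 6 without rapamycin replicate 1, 5 without PBS replicate 2 and 1 when each array was centred on its median. Leaving out a mouse cannot make separated groups overlap, so that count can only stay or rise. The share of all genes that separate without 1 mouse was not counted.

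**Figure D1:**
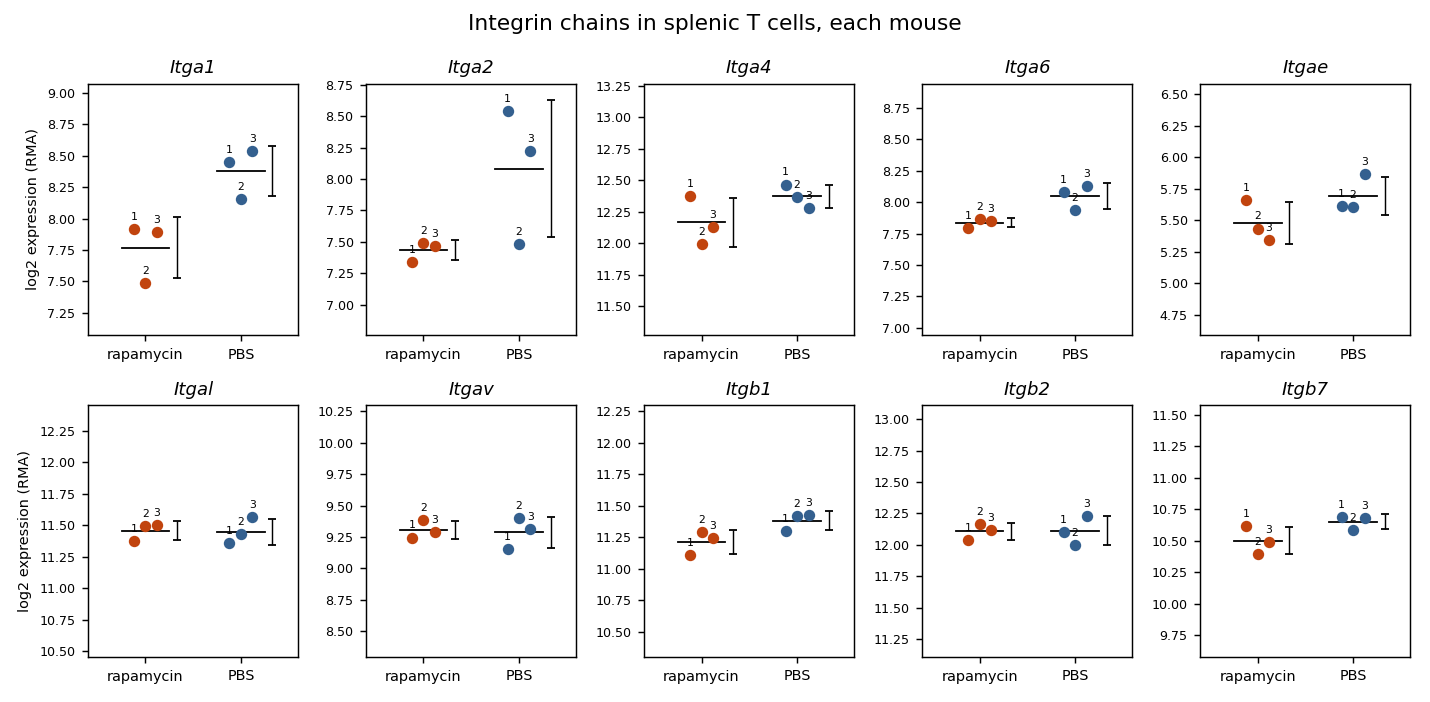
Each panel plots 1 integrin gene, with log2 expression on the y axis (every panel spans the same 2 log2 units) and the 3 rapamycin and 3 PBS mice as points numbered by replicate. Black lines are group means and bars beside them the SD. Itga1, Itga6 and Itgb1 show no overlap between the groups, Itga2 is spread widely among PBS mice only, and Itgal and Itgb2 lie level.

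Across the mice, the mean of the 10 chains, set against each chain's PBS mean, was -0.20, -0.25 and -0.21 log2 in rapamycin replicates 1, 2 and 3, against 0.03, -0.11 and 0.08 in PBS replicates 1, 2 and 3. All 3 rapamycin means were below the lowest PBS mean, but Itga1 and Itga2 weigh heavily in them. The median of the 10 chains on the same scale was -0.08, -0.22 and -0.18 in the rapamycin mice, against 0.01, -0.08 and 0.10 in the PBS mice, and by this median rapamycin replicate 1 and PBS replicate 2 overlapped. The number of chains below their PBS mean was 9, 7 and 8 in the 3 rapamycin mice, against 5, 8 and 1 in the 3 PBS mice. PBS replicate 2 thus had as many chains below the PBS mean as rapamycin replicate 3, by smaller amounts for most of them.

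The collagen-binding alpha chains had the most negative differences of the 10. Itga1, the collagen-binding CD49a chain, which is carried by activated and tissue-resident T cells, measured 7.92, 7.49 and 7.90 log2 in rapamycin replicates 1, 2 and 3, against 8.45, 8.15 and 8.53 in PBS replicates 1, 2 and 3. The groups did not overlap, with a gap of 0.23 log2 between the nearest mice. The means were 7.77 ± 0.24 with rapamycin and 8.38 ± 0.20 with PBS (SD, n = 3 each), a level lower by a factor of 1.53 with rapamycin. In limma the difference was -0.61 (SE 0.14, 95% interval -0.94 to -0.28, adjusted p = 0.814), and the gene ranked 54th by p among 19938. Leaving out any 1 mouse moved the difference between -0.72 and -0.47. In bulk samples, fewer cells that carry a transcript and less of it per cell cannot be told apart.

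Itga2, the collagen-binding CD49b chain, is found on natural killer cells, platelets and some activated and regulatory T cells. It measured 7.34, 7.49 and 7.47 log2 in the rapamycin mice, against 8.54, 7.48 and 8.23 in the PBS mice. The rapamycin mice lay within 0.15 of each other, whereas the PBS mice spanned 1.06, and PBS replicate 2 sat at the level of the rapamycin mice, so the groups overlapped. The means were 7.43 ± 0.08 with rapamycin and 8.08 ± 0.54 with PBS (SD, n = 3 each). The difference was -0.65 (SE 0.23, 95% interval -1.17 to -0.13, adjusted p = 0.982 in limma). It was -0.42 without PBS replicate 1 and -0.95 without PBS replicate 2, so this value depends on which PBS mice are counted.

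Itga1 and Itga2 are neighbours on chromosome 13 in the RefSeq order of GRCm38.p6, read from the same strand, and the gene Pelo, a ribosome rescue factor, lies within the span of Itga1. The 250 bases before the starts of Itga1 and Itga2 and of their shared partner Itgb1 are shown so that the regions ahead of the lowest chains and of their partner can be compared. They are from RefSeq, build GRCm38.p6, at chr13:115101965-115102214 on the minus strand, chr13:114932101-114932350 on the minus strand and chr8:128685404-128685653 on the plus strand, and capitals mark CAGAC or its reverse complement GTCTG, the short box that SMAD proteins bind.
Itga1: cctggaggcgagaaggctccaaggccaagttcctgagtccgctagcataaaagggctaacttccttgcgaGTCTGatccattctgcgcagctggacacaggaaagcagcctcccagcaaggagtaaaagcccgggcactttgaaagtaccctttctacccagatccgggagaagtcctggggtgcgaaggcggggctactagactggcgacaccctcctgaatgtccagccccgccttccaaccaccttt
Itga2: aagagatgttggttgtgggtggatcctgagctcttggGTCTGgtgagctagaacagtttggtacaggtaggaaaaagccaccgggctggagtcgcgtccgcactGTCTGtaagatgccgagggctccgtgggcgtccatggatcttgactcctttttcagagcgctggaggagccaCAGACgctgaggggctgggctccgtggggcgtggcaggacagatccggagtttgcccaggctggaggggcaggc
Itgb1: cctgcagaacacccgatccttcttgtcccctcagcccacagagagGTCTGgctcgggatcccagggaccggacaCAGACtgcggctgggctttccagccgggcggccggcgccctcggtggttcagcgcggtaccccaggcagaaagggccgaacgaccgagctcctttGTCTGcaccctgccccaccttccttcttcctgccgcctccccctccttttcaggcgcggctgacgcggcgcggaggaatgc

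The box was counted because TGF-beta signals through SMADs and is a known inducer of Itgae in T cells. The Itga1 region held 1 such box, the Itga2 region 3 and the Itgb1 region 3, and none overlapped another. Promoters were at hand for 6 of the 10 chains, but not for Itgae, Itga6, Itgal or Itgb2. The box was therefore not examined in Itgae itself. Of the 6, 5 held the box in the 250 bases, the exception being Itgav. The same box occurs in 42.2% of 32851 promoter windows of this length, so a match is common. The RUNX core TGTGGT, searched on both strands, was found in 1 of the 6, Itga4, and in 14.0% of all windows. The box GGGCGG of SP and KLF factors was found in Itga4 and Itgb1, and in 32.7% of all windows, and the ETS core CCGGAA in 0 of the 6 and in 12.03% of all windows. The G and C content was 57.6% in the Itga1 region, 60.8% in the Itga2 region and 68.0% in the Itgb1 region, against a median of 52.4% over all windows. These are matches of letters and say nothing of binding in these cells.

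The genes around the pair lay closer to PBS. Pelo, within the span of Itga1, measured 6.92, 6.67 and 6.77 log2 in the rapamycin mice, against 6.85, 6.86 and 6.74 in the PBS mice, a difference of -0.03 (SE 0.09). Mocs2, a molybdenum cofactor synthesis gene next to Itga2, differed by -0.12 (SE 0.11), and Isl1, a homeobox factor beyond Pelo, by 0.18 (SE 0.11). Further out, Fst, Ndufs4, Parp8 and Emb lay between 0.03 and 0.07 above PBS. These 7 neighbours were picked by position after the values of Itga1 and Itga2 had been seen.

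**Figure D2:**
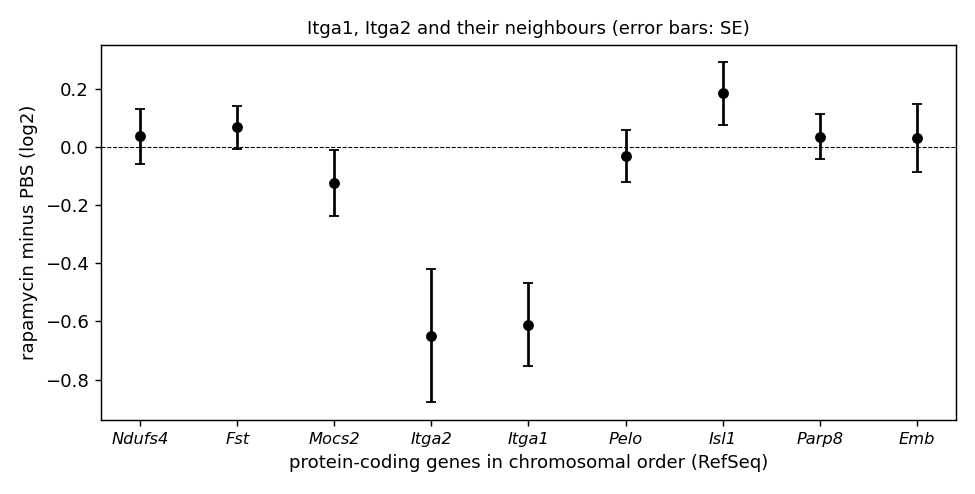
Points are rapamycin minus PBS differences (log2, y axis) of 9 protein-coding genes in their order on chromosome 13 (x axis), with standard errors as bars and a dashed line at no difference. Itga2 and Itga1 stand at -0.65 and -0.61, and the 7 neighbours lie between -0.12 and 0.18.

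Among the other chains that pair with Itgb1, Itga6, the laminin-binding CD49f chain, measured 7.79, 7.86 and 7.85 log2 in the rapamycin mice, against 8.08, 7.93 and 8.13 in the PBS mice. The groups did not overlap, and the 3 rapamycin mice lay within 0.07 of each other. The difference was -0.21 (SE 0.08, 95% interval -0.40 to -0.03), with an unadjusted p of 0.0289 and an adjusted p of 0.9998 in limma. Its unadjusted p in limma was under 0.05 in 8 of 13 alternative fits and 0.0983 with array medians centred.

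Itga4, the CD49d chain that serves both Itgb1 and Itgb7, measured 12.37, 11.99 and 12.13 log2 in the rapamycin mice, against 12.47, 12.37 and 12.28 in the PBS mice. Rapamycin replicate 1 lay inside the PBS range and the other rapamycin mice below it. The difference was -0.21 (SE 0.11, 95% interval -0.46 to 0.04). It was -0.31 without rapamycin replicate 1 and -0.12 without rapamycin replicate 2.

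Itgav, the alpha V chain that binds vitronectin and latent TGF-beta, had no clear side. It measured 9.25, 9.38 and 9.29 log2 in the rapamycin mice, against 9.15, 9.40 and 9.31 in the PBS mice, and the rapamycin mice all lay inside the PBS range. The difference was 0.02 (SE 0.09, 95% interval -0.19 to 0.22), and its sign turned when rapamycin replicate 2 or PBS replicate 1 was left out.

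Itgb1, the CD29 chain shared by these receptors, measured 11.11, 11.29 and 11.25 log2 in the rapamycin mice, against 11.30, 11.42 and 11.43 in the PBS mice. The groups did not overlap, but the gap between the nearest mice, rapamycin replicate 2 and PBS replicate 1, was 0.01. The difference was -0.17 (SE 0.08, 95% interval -0.36 to 0.02).

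The chains of the gut and epithelium receptors lay slightly below PBS. Itgb7 measured 10.61, 10.40 and 10.49 log2 in the rapamycin mice, against 10.69, 10.59 and 10.68 in the PBS mice, a difference of -0.15 (SE 0.08, 95% interval -0.34 to 0.04). Rapamycin replicate 1 lay just above PBS replicate 2, so the groups overlapped by 0.03. Its partner Itgae measured 5.66, 5.43 and 5.34 log2 in the rapamycin mice, against 5.61, 5.60 and 5.87 in the PBS mice, a difference of -0.22 (SE 0.11, 95% interval -0.47 to 0.04). Rapamycin replicate 1 lay above 2 of the 3 PBS mice. The mean signal of the Itgae probe set stood at the 37.0th percentile of all genes, the dimmest of the 10, and whether it was above background was not tested. Dim probe sets are compressed by the normalization, so a difference there may be understated. If the signal was background, the difference would not describe the Itgae transcript at all.

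The LFA-1 chains lay level between the groups. Itgal measured 11.37, 11.50 and 11.51 log2 in the rapamycin mice, against 11.36, 11.43 and 11.56 in the PBS mice, a difference of 0.01 (SE 0.09, 95% interval -0.19 to 0.21). Itgb2, the CD18 chain it shares with the myeloid integrins, measured 12.04, 12.17 and 12.12 log2 in the rapamycin mice, against 12.10, 12.002 and 12.23 in the PBS mice. Its difference was -0.0039 (SE 0.09, 95% interval -0.20 to 0.19), 0.01 with each array centred on its median, and 0.01 with array weights. The intervals allow a shift of about 0.2 log2 either way for both chains, so equality is not shown.

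**Figure D3:**
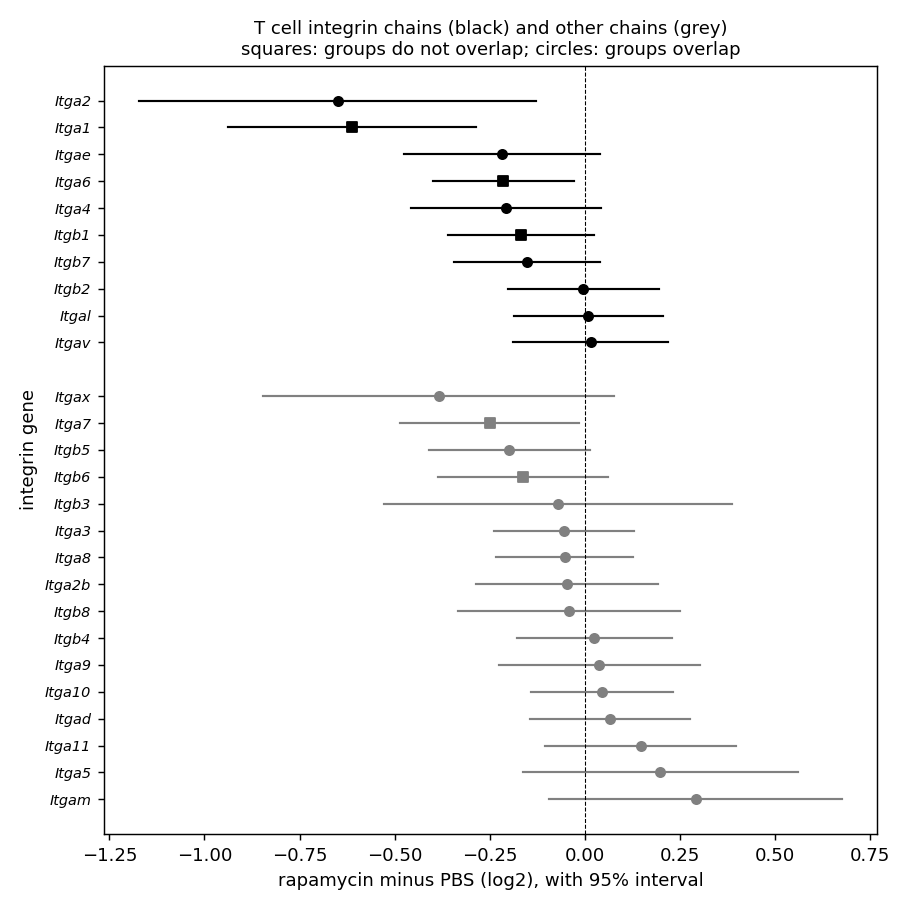
Points are rapamycin minus PBS differences (log2, x axis) of the 10 T cell chains in black and 16 other integrin chains in grey, with 95% intervals from limma. Squares mark genes whose groups do not overlap. The black intervals of Itga1, Itga2 and Itga6 lie below 0, and those of Itgal, Itgb2 and Itgav are centred near 0.

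Whether the partners of a dimer differed by unequal amounts was asked of 8 known pairs, by taking the alpha minus the beta value in each mouse. The test was an exact two-sided permutation test over mice, whose smallest possible p with 3 against 3 is 0.1, so it could not reach 0.05. The difference of Itga1 less that of Itgb1 was -0.44 (SE 0.23, exact p = 0.2), and for Itga2 less Itgb1 it was -0.48 (SE 0.34, exact p = 0.4). For Itga4 and Itga6 less Itgb1 it was -0.04 and -0.05, and for Itgal less Itgb2 0.01. Against Itgb7, Itga4 stood at -0.06 and Itgae at -0.07. For Itgav the value against Itgb1 was 0.18 (SE 0.05), with no overlap between the groups and the smallest exact p, 0.1. After Benjamini-Hochberg adjustment over the 8 pairs the exact p values were 0.8 or 0.9.

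**Figure D4:**
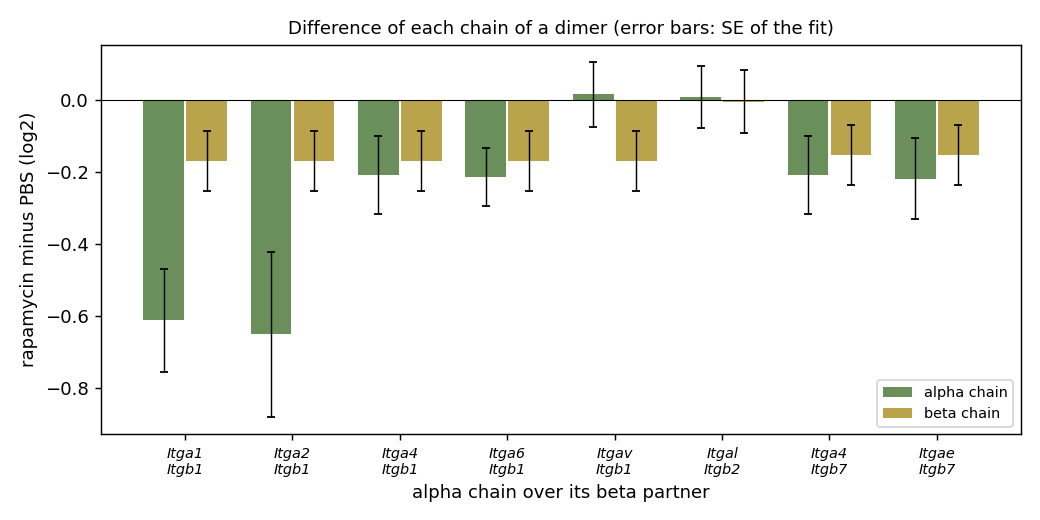
Bars are the rapamycin minus PBS difference (log2, y axis, starting at 0) of the alpha chain in green and its beta partner in yellow for 8 dimers (x axis), with the standard error of the fit. In the first and second pairs the alpha bars, at -0.61 and -0.65, reach below the Itgb1 bars at -0.17, and in the LFA-1 pair both bars are near 0.

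The mouse-by-mouse pattern of the collagen receptor chains was compared with that of other genes by the root mean square distance between log2 values centred over the 6 mice. Genes were compared if their SD over the mice reached that of the chain divided by 2, which left 2924 genes for Itga1 and 1292 for Itga2. The nearest to Itga1 were Rcn3, a calcium-binding protein of the endoplasmic reticulum, at a distance of 0.0863 log2, then Errfi1, Neurl3, Stard10 and Hsf4 at 0.127 to 0.138. Rcn3 measured 6.57, 6.36 and 6.56 log2 in the rapamycin mice, against 7.18, 6.98 and 7.20 in the PBS mice, with replicate 2 the lowest in each group, as for Itga1. The nearest to Itga2 was Apobec2, a member of the cytidine deaminase family, at 0.0971, then Hrh4, Slc25a53, Ifi208 and Pde2a at 0.149 to 0.198. Apobec2 measured 7.73, 8.05 and 7.86 log2 in the rapamycin mice, against 8.89, 8.08 and 8.77 in the PBS mice, so PBS replicate 2 again sat near the rapamycin mice. For Itgae, whose spread is small, 13897 genes qualified and the nearest were Olfr772, AA388235, Gpx6, Hils1 and Olfr1418, at 0.0330 to 0.0493. With 6 mice and this many genes some patterns lie near by number alone, and the distances describe these arrays only.

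The other 16 integrin chains of the mouse were all measured, and 0 passed over all genes in either direction. Of these 9 had a negative difference, where 55.3% of all genes had one, and the median was -0.04. The groups did not overlap for 2, Itga7 and Itgb6, both lower, where 9.42% of all genes separated. At an unadjusted p under 0.05 in limma there was 1, where 4.67% of all genes were under it. That chain was Itga7, a laminin-binding chain of muscle, which measured 5.89, 5.95 and 5.97 log2 in the rapamycin mice, against 6.32, 6.27 and 5.97 in the PBS mice. Its groups did not overlap, though replicate 3 of either group was level at 2 decimals. Itgax, the CD11c chain of dendritic cells and of some activated CD8 T cells, measured 9.17, 8.79 and 8.77 log2 in the rapamycin mice, against 9.41, 8.83 and 9.65 in the PBS mice. PBS replicates 1 and 3 were the highest and PBS replicate 2 lay among the rapamycin mice, as for Itga2. Itgam, the CD11b chain of myeloid cells, had a positive difference, at 10.24, 10.31 and 10.88 log2 in the rapamycin mice, against 10.36, 10.02 and 10.17 in the PBS mice, a difference of 0.29 (SE 0.17). Platelet and progenitor chain Itga2b differed by -0.05 (SE 0.10), its partner Itgb3 by -0.07 (SE 0.20), the laminin chain Itga3 by -0.05 and the fibronectin chain Itga5 by 0.20 (SE 0.16). Itgb5 and Itgb6, epithelial and stromal partners of alpha V, differed by -0.20 and -0.16.

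Transcripts of integrin activators and adaptors, a list that also holds proteins that restrain integrins, had mostly small negative differences. Of 38 activators and adaptors 37 were measured, 27 with a negative difference, where 55.3% of all genes had one. The median was -0.06, and 0 were past the test in either direction. The lowest p belonged to Rasgrp2, the exchange factor that loads Rap with GTP ahead of integrin activation. It measured 10.19, 9.64 and 9.78 log2 in the rapamycin mice, against 10.82, 10.19 and 10.27 in the PBS mice, a difference of -0.56 (SE 0.19, adjusted p = 0.982 in limma). The groups overlapped at rapamycin replicate 1 and PBS replicate 2. Cytip, which restrains LFA-1 through cytohesin, differed by 0.16 (SE 0.08), and Parva, an actin-linking partner of integrin-linked kinase, by -0.15 (SE 0.08), each with no overlap between the groups. The talin gene Tln1, the kindlin of blood cells Fermt3 and the Rap gene Rap1b had values within 0.1 log2 of PBS.

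Ligands and surface partners showed no common direction. Of 27 ligand genes 26 were measured, 16 with a positive difference, a median of 0.03 and 0 past the test. Mfge8, a ligand of alpha V integrins on phagocytes, measured 8.10, 8.26 and 8.38 log2 in the rapamycin mice, against 8.49, 8.47 and 8.44 in the PBS mice. Sema7a, a semaphorin that binds Itga1 with Itgb1, differed by 0.29 (SE 0.15) and Icam2, a ligand of LFA-1, by -0.20 (SE 0.12). Of 12 surface partners 7 had a positive difference, with a median of 0.01. Cd81, a tetraspanin that associates with integrins, measured 10.55, 11.70 and 11.42 log2 in the rapamycin mice, against 10.15, 10.45 and 10.83 in the PBS mice, a difference of 0.74 (SE 0.28, adjusted p = 0.9998 in limma). Rapamycin replicate 1 lay inside the PBS range and the other rapamycin mice above it. The partner list also held Cd53 at 0.11 (SE 0.09) and the urokinase receptor Plaur at 0.23 (SE 0.20).

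Regulators tied to Itgae and to tissue residency were read from a list of 17, of which 16 were measured, 11 with a negative difference, a median of -0.05 and 0 past the test. Tgfbr2, a TGF-beta receptor chain, measured 9.61, 9.73 and 9.65 log2 in the rapamycin mice, against 10.02, 9.83 and 10.08 in the PBS mice. Smad3, the signal carrier of that receptor, measured 8.96, 8.65 and 8.67 log2 in the rapamycin mice, against 9.42, 9.14 and 9.005 in the PBS mice. Both separated the groups, with differences of -0.32 (SE 0.09) and -0.43 (SE 0.13) and adjusted p values of 0.967 and 0.970 in limma. With Tgfbr1, at -0.17, 3 of the 16 separated, all lower, where 9.42% of all genes separated. Smad2, Smad4 and Smad7 lay closer to PBS, at 0.07, -0.03 and 0.01. Klf2, a factor of T cell trafficking, differed by -0.29 (SE 0.12) with overlapping groups. Itgae itself, at -0.22, overlapped between the groups.

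The sorted cells carried T cell transcripts at close levels in both groups. Over 11 measured T cell markers the mean log2 value per mouse ranged from 11.2 to 11.4 with rapamycin and from 11.2 to 11.4 with PBS, with 7 negative differences. The lowest p in that list was that of Cd5, at -0.19 (SE 0.08), followed by Cd8b1 at -0.13 and Lat at -0.08. Cd5 was the 1 marker of the 11 whose groups did not overlap, where 9.42% of all genes separated. Its difference lay within the 0.15 to 0.22 below PBS seen for Itga4, Itga6, Itgae, Itgb1 and Itgb7. Since Itga2 and Itgae are also carried by natural killer cells, platelets, dendritic cells and regulatory T cells, markers of those cells were read beside them. Of 12 natural killer markers 10 were measured, 7 negative, with list means from 6.72 to 7.02 with rapamycin and from 6.71 to 7.01 with PBS. The natural killer receptor Ncr1 measured 3.94, 4.13 and 4.12 log2 in the rapamycin mice, against 4.36, 4.25 and 4.30 in the PBS mice, a dim signal, with Klra8 at 0.27 and Fcgr3 at 0.29. Of 9 platelet markers 6 were measured, 3 negative, with list means from 4.82 to 4.98 with rapamycin and from 4.81 to 5.01 with PBS, and Clec1b, Pf4 and Treml1 at -0.26, -0.08 and 0.04. The natural killer and platelet list means overlapped between the groups, and the part of these cells in the integrin values was not tested.

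The 8 dendritic cell markers, of which Itgax is one, had list means from 6.30 to 6.40 with rapamycin and from 6.42 to 6.53 with PBS, with 6 negative differences and Xcr1 and Flt3 at -0.22 and -0.23. These means did not overlap between the groups, but they count Itgax, itself an integrin chain and the lowest of the list at -0.38. Their separation is therefore not independent of the integrin values. H2-Ab1 and Cd209a were positive, at 0.20 and 0.03, and the part of these cells in the integrin values was not tested. The 8 regulatory T cell markers, 5 of them with a positive difference, ranged from 8.81 to 9.09 with rapamycin and from 8.70 to 8.92 with PBS. Foxp3 differed by -0.30 (SE 0.17), Il2ra by 0.37 (SE 0.12) and Capg by 0.27 (SE 0.15). Of 8 gamma-delta and innate-like markers 5 were measured, 2 negative, with list means from 6.13 to 6.37 with rapamycin and from 6.03 to 6.40 with PBS, and Il23r, Zbtb16 and Blk at 0.46, -0.21 and 0.06.

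Macrophage and monocyte markers, which matter for Itgb2 and Itgav, were negative in 8 of 11 measured genes, with list means from 8.26 to 8.79 with rapamycin and from 8.59 to 8.96 with PBS. Spic differed by -1.34 (SE 0.19), C1qa by -0.56 (SE 0.22) and Lyz2 by 0.29 (SE 0.11). The groups did not overlap for 2 of the 11, Spic, lower, and Lyz2, higher, where 9.42% of all genes separated. By p in limma Spic ranked 4th among 19938 genes, ahead of Itga1 at 54th. Neutrophil markers were positive in 12 of 13, with list means from 8.56 to 9.61 with rapamycin and from 7.98 to 9.27 with PBS, and Elane, Lcn2 and Camp at 0.61, 0.45 and 0.66. B cell markers were positive in 4 of 7 measured genes, with list means from 4.95 to 5.07 with rapamycin and from 5.0005 to 5.12 with PBS, a median difference of 0.01 and a mean of -0.06, and Cd79b, Fcer2a and Blnk at -0.54, 0.07 and 0.05. Erythroid markers were positive in 4 of 6 measured genes, with list means from 6.34 to 6.71 with rapamycin and from 6.25 to 6.44 with PBS, and Epb42, Slc4a1 and Epor at 0.31, 0.45 and -0.12. Stroma and endothelium markers were negative in 5 of 8. Their list means ran from 5.73 to 5.78 with rapamycin and from 5.77 to 5.84 with PBS. Cdh5, Dcn and Pecam1 differed by -0.31 (SE 0.09), 0.35 (SE 0.11) and -0.28 (SE 0.10). The groups did not overlap for these 3 of the 8, 2 lower and 1 higher, where 9.42% of all genes separated. The same 3 had an unadjusted p under 0.05 in limma, where 4.67% of all genes were under it. Of the 7 B cell markers measured, 1, Cd79b, separated the groups, and it ranked 24th by p in limma, also ahead of Itga1. In these lists 0 genes passed over all genes, and the part of these cells in the integrin values was not tested.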

How the data were processed

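RNA of CD3-sorted spleen cells was hybridised to whole-transcript arrays, 1 per mouse, 3 rapamycin and 3 PBS, grouped by sample title. The deposited values are log2 expression per probe set, made by the authors with RMA in Affymetrix Expression Console, per the submitters' processing notes. RMA removes shifts shared by most genes and compresses dim signals. Software versions and the genome build: not given in the sources used here. Array medians lay between 6.03 and 6.17 over 35556 probe sets. Of these 21789 name exactly 1 gene in the platform table, 1621 name several and 12146 are not listed. Symbols were checked by gene identifier against RefSeq (21698 matched, 0 updated). The brightest probe set stood for each of 19938 genes, of which 999 had 2 or more.

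Differences, rapamycin minus PBS, came from R 4.3.3 and limma 3.58.1 (a linear model with group alone and empirical Bayes moderation, 8.441 degrees of freedom), two-sided, with Benjamini-Hochberg adjustment over all genes and a threshold of 0.05. Genes named were the 10 chains, the other 16 integrin chains, up to 3 members with the smallest p per list and the 5 nearest patterns to Itga1, Itga2 and Itgae. The neighbours of Itga1 and Itga2, and Tln1, Fermt3, Rap1b, Tgfbr1, Smad2, Smad4, Smad7, H2-Ab1 and Cd209a, were added outside this rule. The members and all 17 lists were chosen with earlier results of these data known. List members without a probe set of their own (Ptk2, Spp1, Zfp683, Lck and others) were not analysed here. The fit was tested on simulated data. Dimers were tested in scipy 1.17.1, and figures drawn with matplotlib 3.10.9. Alternatives were a replicate block, leaving out each array, other scalings, probe set choice, a filter on dim genes, variance settings and array weights.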

Additional observations from a re-analysis of the deposited data

How the results depend on the processing

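The 10 integrin chains were refitted under 13 alternatives, and 0 of them passed an adjusted p of 0.05 in any. The lowest adjusted p of Itga1 was 0.316 and that of Itga2 0.388. Over all genes 1 gene passed, against 0 with the replicate block and 0 to 7 when 1 mouse was left out. The replicate numbers name mice only: same-numbered mice deviated together with correlations of 0.0861, -0.192 and 0.195, so they are not treated as pairs, and the block left 3 chains at an unadjusted p under 0.05. The count of chains at that p, 3, was 6 with array weights and 1 to 4 without 1 mouse. The count of separated chains, 3, was 1 with array medians centred and 3 to 6 without 1 mouse, where it cannot fall. The count of negative differences, 8, was 7 to 10 without 1 mouse. The median over the chains lay between -0.20 and -0.14 without 1 mouse. The scalings moved the median of all genes by less than 0.02, as it was -0.01 as deposited, 0.00 with quantile normalization and 0.00 with array medians centred.

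The sign of Itga1, Itga2, Itga4, Itga6, Itgae, Itgb1 and Itgb7 stayed negative in each alternative that measured them. The replicate block, the probe set choice, the filter on dim genes and the variance settings leave a chain's difference unchanged. Those alternatives could therefore not turn a sign, and only leaving out mice, other scalings and array weights could. Itgae is among the dim genes that 1 alternative leaves out. The Itgal difference lay between -0.0361 and 0.0661 without 1 mouse, the Itgav difference between -0.0504 and 0.0713 and the Itgb2 difference between -0.0589 and 0.0566. Itgb2 was 0.0123 with array medians centred and 0.0134 with array weights. Without 1 mouse, the dimer value of Itga4 against Itgb1 lay between -0.197 and 0.0859, Itga6 against Itgb1 between -0.122 and 0.0142, Itgal against Itgb2 between -0.0266 and 0.0573 and Itgae against Itgb7 between -0.125 and 0.0084. The cause of these changes of sign was not tested.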
